A study of Homo sapiens with 22 samples.

Results

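The HOX genes are the homeobox genes of the HOXA, HOXB, HOXC and HOXD clusters. They were chosen by name, as the rows of the count table whose gene ID carries a symbol made of HOXA, HOXB, HOXC or HOXD and a number. This gave 39 of 48162 gene IDs, with antisense genes left out. The HOXA cluster on chromosome 7 has 11 of them, the HOXB cluster on chromosome 17 has 10, the HOXC cluster on chromosome 12 has 9 and the HOXD cluster on chromosome 2 has 9. RNA was sequenced from HEK293 cells, a human line derived from embryonic kidney, in 6 groups of 2 libraries. VPRP sgHBB cells carried dCas9 (a Cas9 that binds DNA at the site of its guide RNA without cutting) fused to VPRP, which joins the VPR activation domains to the acetyltransferase part of p300, and a guide against the beta-globin gene HBB. VPRP NonTarget cells had the VPRP fusion with a guide that has no target. VPR sgHBB cells had dCas9 fused to VPR alone, p300 sgHBB cells had dCas9 fused to p300, and p300 D1399Y sgHBB cells had p300 with the D1399Y substitution, which impairs its catalysis; these 3 groups had the HBB guide. WT cells held a guide and no dCas9 fusion, and the labels do not say which guide. By the protocol all cells were exposed to doxycycline for 48 h (the treatment label of WT reads No treatment) and sorted by fluorescence, for both markers in the fusion groups and for the guide's marker alone in WT, with the same number of cells sorted for every library. No guide was directed at a HOX cluster. The series calls the libraries of a group biological replicates, and nothing says that they came from separate cultures, so the p-values measure the spread between these libraries. Every library is of bulk RNA, so fewer cells that use a gene and less RNA per cell cannot be told apart.

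HOX genes encode homeodomain transcription factors that give cells along the body axis their regional identity. Genes of a cluster are numbered by position, from 1 at the anterior end to 13 at the posterior end, and genes with the same number in different clusters are paralogs. In embryos they are switched on in this order, under control of retinoic acid and CDX factors, and Polycomb and Trithorax complexes then hold them silent or active. Their proteins bind DNA together with PBX and MEIS cofactors. In mice the position 11 genes are needed for the kidney to form. HEK293 cells, as the counts below show, express most of the genes of all 4 clusters.

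Total counts ran from 14894558 to 17479523 per library. Levels are given in CPM, the reads of a gene per 1000000 reads after scaling the libraries to each other. They are not corrected for gene length, so they compare libraries within a gene and not genes with each other. Fold changes are log2 values of the first-named group over the second, with their standard error (SE). The tests are quasi-likelihood tests in edgeR, with p-values adjusted after Benjamini and Hochberg over 16694 genes, and a change is called at an adjusted p under 0.05. HBB, the target of the guide, had no reads in WT and VPRP NonTarget and 65.8 to 1732 CPM in the libraries with both a fusion and the HBB guide, in keeping with the labels. Reads assigned to EP300, which cannot be told apart from reads of the fusions' p300 part, averaged 375 CPM in VPRP sgHBB, 1172 in VPRP NonTarget, 98.7 in VPR sgHBB, 1124 in p300 sgHBB, 195 in p300 D1399Y sgHBB, and 107 in WT. MAGEA10 divided the libraries another way: it was at 0 to 0.261 CPM in VPRP sgHBB, p300 sgHBB and p300 D1399Y sgHBB and at 9.34 to 32.1 CPM in VPRP NonTarget, VPR sgHBB and WT. The part of these differences in the HOX values was not tested. Of the 39 HOX genes, 35 passed the filter on low counts and 4 did not, so every count below is over those 35 and not over all HOX genes.

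The summed level of all HOX genes was 50.6% and 54.9% of WT in cells with VPRP under the HBB and the non-targeting guide, lower than WT in cells with p300, close to WT with VPR and above WT with the catalytic mutant. The sums were 434 and 432 CPM in VPRP sgHBB, 483 and 457 in VPRP NonTarget, 831 and 800.0 in VPR sgHBB, 591 and 586 in p300 sgHBB, 967 and 969 in p300 D1399Y sgHBB, and 857 and 857 in WT. The libraries of a group lay close together and no sum in either VPRP group or in p300 sgHBB overlapped WT. The means of VPR sgHBB, p300 sgHBB and p300 D1399Y sgHBB came to 95.1%, 68.7% and 113% of the WT mean. With library totals in place of the scaling factors the sums were 53.4% of WT in VPRP sgHBB, 60.2% in VPRP NonTarget, 94.4% in VPR sgHBB, 70.8% in p300 sgHBB and 114% in p300 D1399Y sgHBB. By cluster, the VPRP sgHBB mean was 53.7% of WT for HOXA, 52.8% for HOXB, 49.0% for HOXC and 45.3% for HOXD. The p300 sgHBB mean was 76.5%, 72.3%, 59.9% and 62.8% of WT in the same order of clusters. For VPR sgHBB it was 102.5%, 84.2%, 106.9% and 94.6%, and both VPR sgHBB sums of HOXB lay below both WT sums. Single genes weigh heavily in these sums. HOXB9 made up 198 of 299 CPM of HOXB in WT and 139 of 251 CPM in VPR sgHBB. It was the only 1 of 9 tested HOXB genes called lower in VPR sgHBB, where 2 were called higher. HOXD13 made up 134 of 198 CPM of HOXD in WT. In p300 D1399Y sgHBB the HOXB sum was highest relative to WT, at 375 ± 0.223 CPM against 299 ± 1.42 CPM in WT (SD, n = 2 each), which is 126%. The HOXD sum was 94.4% of WT there. The sums were not tested.

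**Figure D1:**
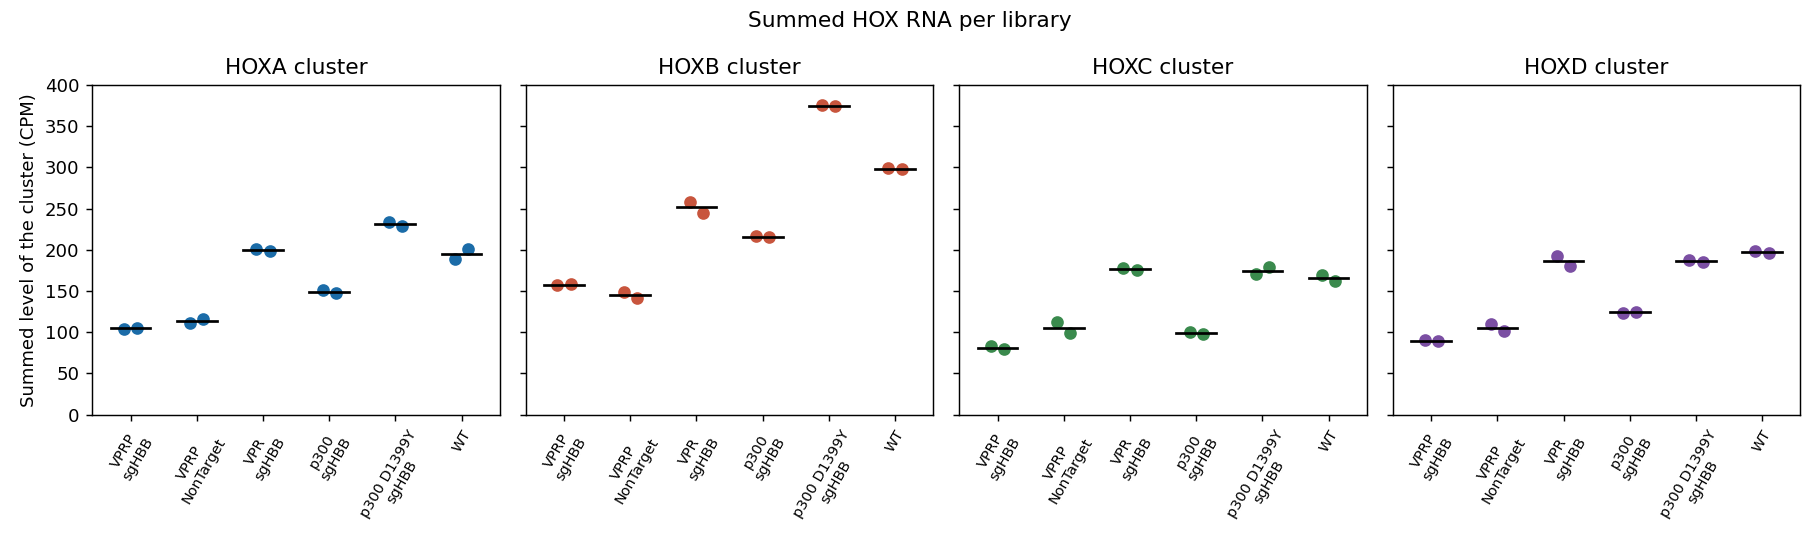
Summed CPM of the HOX genes of each cluster (vertical axes, linear from 0) in each library (points), with the group mean as a line, for the 6 groups. In all 4 clusters both VPRP groups sit at 45.3% to 63.9% of the WT mean, and the p300 D1399Y sgHBB libraries lie above WT in the HOXA, HOXB and HOXC clusters.

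HOX genes were mostly lower than in WT in the 3 groups whose fusion holds p300 without D1399Y. In VPRP sgHBB 27 of the 35 tested HOX genes fell and 2 rose, where 28.0% of all tested genes were called lower and 31.1% higher. Their median log2 fold change was -1.04, against 0.04 over all genes, and 19 were at least 2-fold lower, as were 5.64% of all genes. In VPRP NonTarget 26 fell and 5 rose, beside 28.5% and 31.2% of all genes, with a median of -0.83, and 12 were at least 2-fold lower (4.91% of all genes). In p300 sgHBB 22 fell and 1 rose, beside 21.6% and 24.5% of all genes, with a median of -0.70, and 6 were at least 2-fold lower (2.78% of all genes). The other 2 groups gave another picture. In VPR sgHBB 6 fell and 6 rose, beside 11.5% and 13.8% of all genes, with a median of 0.03. The VPR count depends on single libraries: it was 5 with VPR sgHBB replicate 2 or WT replicate 1 left out and 3 with WT replicate 2 left out, and the split was 3 higher and 6 lower with RLE factors or library totals and 1 higher and 6 lower with DESeq2. In p300 D1399Y sgHBB 10 rose and 2 fell, beside 15.7% and 14.5% of all genes, with a median of 0.16. The 5 comparisons share the WT libraries. Of the 35 genes, 25 were called lower in both VPRP groups, and 20 of those also in p300 sgHBB. The shares of all genes called lower jointly in these groups were not counted. HOXA4 was called in none of the 5 comparisons.

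**Figure D2:**
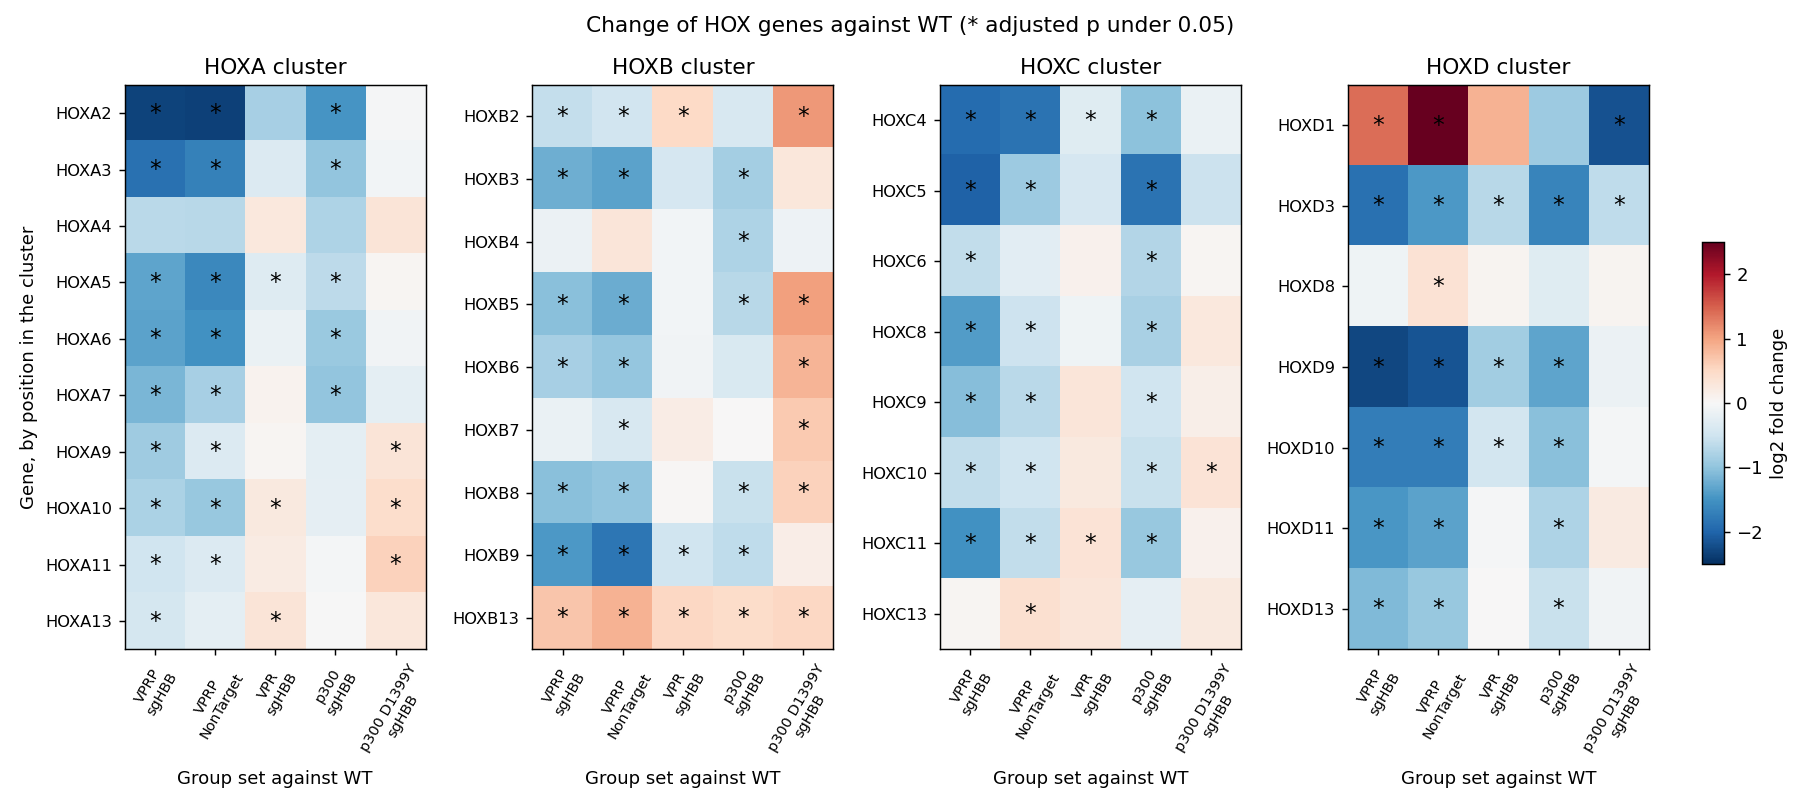
Log2 fold change against WT (colour scale from -2.5 to 2.5) of the tested HOX genes shown, with clusters as panels, genes from anterior to posterior down the vertical axis and the 5 groups across. A star marks an adjusted p under 0.05; both VPRP columns and the p300 column are mostly blue, the HOXB genes are mostly red in p300 D1399Y sgHBB, and HOXB13 is red in all 5 columns.

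The promoter windows of 4 genes are shown because these genes took different courses: HOXD3 was called lower in all 5 groups, HOXD10 and HOXA7 fell in both VPRP groups and in p300 sgHBB, and HOXD1 was higher in both VPRP groups. These 4 were chosen after the values were seen, among the HOX genes with a window. RefSeq sequences of build GRCh38.p14 were used, from 250 bases before to 50 bases after the start, and 20 of the 39 HOX genes matched. Each is read 5′ to 3′ on the gene's strand: HOXD1 at chr2:176188418-176188717 (plus), HOXD3 at chr2:176157057-176157356 (plus), HOXD10 at chr2:176116528-176116827 (plus) and HOXA7 at chr7:27156626-27156925 (minus). Capitals mark the CCAAT box (CCAAT, read as ATTGG on the other strand) and the GC box (GGGCGG, or CCGCCC on the other strand), and no match shares a base with another.
HOXD1: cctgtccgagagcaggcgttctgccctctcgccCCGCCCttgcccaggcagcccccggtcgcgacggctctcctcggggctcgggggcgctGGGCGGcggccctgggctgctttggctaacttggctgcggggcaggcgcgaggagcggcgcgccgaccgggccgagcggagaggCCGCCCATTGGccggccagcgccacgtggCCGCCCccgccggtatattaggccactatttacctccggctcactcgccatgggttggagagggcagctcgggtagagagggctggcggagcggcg
HOXD3: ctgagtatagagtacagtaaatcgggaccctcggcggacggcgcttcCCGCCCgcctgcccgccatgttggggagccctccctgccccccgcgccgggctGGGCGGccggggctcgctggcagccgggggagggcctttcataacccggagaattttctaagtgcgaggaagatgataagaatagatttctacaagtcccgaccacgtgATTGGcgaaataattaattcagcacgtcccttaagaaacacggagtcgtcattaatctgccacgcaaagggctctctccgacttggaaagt
HOXD10: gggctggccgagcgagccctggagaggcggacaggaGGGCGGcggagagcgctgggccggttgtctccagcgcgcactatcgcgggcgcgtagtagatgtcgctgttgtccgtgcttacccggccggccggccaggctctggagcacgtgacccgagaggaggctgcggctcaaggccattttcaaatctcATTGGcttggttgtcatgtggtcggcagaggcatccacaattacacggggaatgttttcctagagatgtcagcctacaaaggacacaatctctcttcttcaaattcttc
HOXA7: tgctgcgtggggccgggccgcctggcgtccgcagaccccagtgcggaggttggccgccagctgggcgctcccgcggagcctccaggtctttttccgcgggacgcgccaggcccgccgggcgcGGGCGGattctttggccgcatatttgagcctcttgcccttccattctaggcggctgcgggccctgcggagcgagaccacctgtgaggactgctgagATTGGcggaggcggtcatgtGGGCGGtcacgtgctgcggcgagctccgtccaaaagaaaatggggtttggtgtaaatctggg
Each of the 4 windows held 1 CCAAT box, and they held 4, 2, 1 and 2 GC boxes. HOXD1, which moved opposite to the other 3 in the VPRP groups, had as many CCAAT boxes as each of them and more GC boxes. The 20 HOX genes have 27 windows, since some have several starts. Among those holding a motif searched for here, HOXC4, HOXC5 and HOXB1 were the only ones outside HOXA and HOXD. The shares below thus describe mainly HOXA and HOXD genes and not all clusters alike. Of these windows 18 (66.7%) held a CCAAT box, against 34.6% of 35116 windows of all genes. A GC box was found in 13 of the 27 (48.1%, against 45.0% of all windows) and the TATA box TATAAA in 5 (18.5%, against 11.5%). The PBX-HOX site TGATTNAT was found in 2 (7.41%, against 2.82%) and TTTATNG, a site of posterior HOX and CDX proteins, in 7 (25.9%, against 9.73%), each searched on both strands. The HOX windows had a median of 22 CpG dinucleotides, against 14 over all windows, at a median GC content of 58.0% and 58.7%. A match is a run of letters in this window and not a measured binding site.

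In the HOXA cluster 9 of 11 tested genes fell in VPRP sgHBB, 8 in VPRP NonTarget and 5 in p300 sgHBB (28.0%, 28.5% and 21.6% of all genes). HOXA5, which mice need for lung development, had 22.1 and 20.3 CPM in VPRP sgHBB, 16.7 and 18.0 in VPRP NonTarget, 42.9 and 41.7 in VPR sgHBB, 34.9 and 32.9 in p300 sgHBB, 56.9 and 52.6 in p300 D1399Y sgHBB, and 51.1 and 55.1 in WT. Both VPRP groups were lowest, p300 sgHBB lay between them and the rest, and none of these 3 overlapped WT. Its log2 fold change was -1.33, SE 0.0968, adjusted p = 7.63e-14 in VPRP sgHBB and log2 -0.65, SE 0.0922, adjusted p = 5.2e-07 in p300 sgHBB. HOXA5 was also lower in VPR sgHBB (log2 -0.33, SE 0.0912, adjusted p = 0.0073). That call was lost when WT replicate 2 was left out (log2 -0.27, adjusted p = 0.102). HOXA3, a gene of the pharyngeal arches needed for the thymus in mice, had 4.83 and 4.42 CPM in VPRP sgHBB, 5.53 and 4.88 in VPRP NonTarget, 12.9 and 13.4 in VPR sgHBB, 8.93 and 7.95 in p300 sgHBB, 15.3 and 16.9 in p300 D1399Y sgHBB, and 16.9 and 16.6 in WT. It followed the same order, with every VPRP and p300 library under every WT library (log2 -1.86, SE 0.161, adjusted p = 5.05e-12 in VPRP sgHBB). Its span overlaps those of HOXA4, HOXA5 and HOXA6, and the strand setting of the counting is not given in the sources used here, so reads of these genes may be shared.

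HOXA6 and HOXA7 are active in the thoracic region of the embryo. HOXA6 had 2.48 and 3.04 CPM in VPRP sgHBB, 2.73 and 2.22 in VPRP NonTarget, 6.21 and 6.36 in VPR sgHBB, 3.55 and 3.83 in p300 sgHBB, 7.28 and 5.88 in p300 D1399Y sgHBB, and 5.85 and 8.22 in WT. HOXA7 had 2.61 and 2.15 CPM in VPRP sgHBB, 2.98 and 2.88 in VPRP NonTarget, 5.57 and 5.54 in VPR sgHBB, 2.94 and 2.30 in p300 sgHBB, 4.91 and 3.87 in p300 D1399Y sgHBB, and 5.71 and 4.72 in WT. In both genes the VPRP and p300 libraries were all below the WT libraries. For VPRP sgHBB the change was log2 -1.34, SE 0.236, adjusted p = 9.76e-06 for HOXA6. It was log2 -1.13, SE 0.259, adjusted p = 0.000323 for HOXA7. The HOXA6 call in p300 sgHBB (log2 -0.93) was lost without WT replicate 2 (log2 -0.66, adjusted p = 0.0574), and the HOXA7 call in VPRP NonTarget (log2 -0.83) without WT replicate 1 (log2 -0.69, adjusted p = 0.0587).

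Their neighbours did not all follow. HOXA2, which patterns the second pharyngeal arch, had 0.130 and 0.387 CPM in VPRP sgHBB, 0.182 and 0.332 in VPRP NonTarget, 0.823 and 0.684 in VPR sgHBB, 0.490 and 0.471 in p300 sgHBB, 1.16 and 1.52 in p300 D1399Y sgHBB, and 1.21 and 1.49 in WT. It was low in every library, and its log2 fold change of -2.30, SE 0.621, adjusted p = 0.00181 in VPRP sgHBB was -3.30 without VPRP sgHBB replicate 2. In p300 sgHBB its call (log2 -1.48, SE 0.563, adjusted p = 0.0306) was lost without either p300 sgHBB library or either WT library, with adjusted p-values of 0.104, 0.111, 0.0502 and 0.127, and with DESeq2 (0.0577). HOXA4 had 1.04 and 0.773 CPM in VPRP sgHBB, 0.607 and 1.16 in VPRP NonTarget, 1.96 and 1.51 in VPR sgHBB, 0.673 and 1.00 in p300 sgHBB, 2.14 and 1.45 in p300 D1399Y sgHBB, and 1.14 and 1.75 in WT. Its VPRP sgHBB and p300 sgHBB libraries lay below those of WT, VPR sgHBB and p300 D1399Y sgHBB, and the other groups overlapped WT. With 10 to 37 reads a library no change was called (log2 -0.68, SE 0.470, adjusted p = 0.216 in VPRP sgHBB against WT). HOXA9, a regulator of blood stem cells that is overexpressed in leukaemias, had 11.5 and 12.7 CPM in VPRP sgHBB, 19.0 and 16.6 in VPRP NonTarget, 23.3 and 23.3 in VPR sgHBB, 20.4 and 17.3 in p300 sgHBB, 28.1 and 28.3 in p300 D1399Y sgHBB, and 20.0 and 24.8 in WT. It fell in VPRP sgHBB (log2 -0.89, SE 0.131, adjusted p = 4.99e-07), while its p300 sgHBB value missed the threshold (log2 -0.25, SE 0.125, adjusted p = 0.0992) and passed it without WT replicate 1 (log2 -0.40, adjusted p = 0.0298). It was called lower in VPRP NonTarget (log2 -0.33), a call lost without WT replicate 2 (log2 -0.17, adjusted p = 0.367) or VPRP NonTarget replicate 2 (log2 -0.26, adjusted p = 0.165) and with upper-quartile factors, library totals or DESeq2. It was called higher in p300 D1399Y sgHBB (log2 0.33), a call lost without WT replicate 1 (log2 0.18, adjusted p = 0.391), either p300 D1399Y sgHBB library (0.121 and 0.115) or either VPRP NonTarget library (0.0539 and 0.0531), and with no filter or DESeq2. The other HOXA genes at the posterior end, HOXA10, HOXA11 and HOXA13, fell in VPRP sgHBB with log2 values of -0.79, -0.50 and -0.43. None of these 3 was called in p300 sgHBB, with log2 values of -0.22, -0.05 and -0.00, though HOXA10 passed with RLE factors (log2 -0.24, adjusted p = 0.0382) and without either VPR sgHBB or VPRP NonTarget library (adjusted p = 0.0427 to 0.0487) or VPRP sgHBB replicate 2 (0.0462). The HOXA13 call in VPRP sgHBB was lost without WT replicate 2 (log2 -0.33, adjusted p = 0.0742).

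In the HOXB cluster 6 of 9 tested genes fell in VPRP sgHBB, 7 in VPRP NonTarget and 5 in p300 sgHBB (28.0%, 28.5% and 21.6% of all genes). In p300 D1399Y sgHBB 6 rose (15.7% of all genes). HOXB9, which helps pattern the ribs in mice, had 71.4 and 74.8 CPM in VPRP sgHBB, 56.7 and 56.1 in VPRP NonTarget, 145 and 134 in VPR sgHBB, 128 and 126 in p300 sgHBB, 221 and 220.4 in p300 D1399Y sgHBB, and 202 and 194 in WT. The groups were ordered without overlap from VPRP NonTarget, the lowest, through VPRP sgHBB and p300 sgHBB, to WT and p300 D1399Y sgHBB, the highest, with VPR sgHBB between p300 sgHBB and WT. Its log2 fold change was -1.44, SE 0.0722, adjusted p = 3.81e-18 in VPRP sgHBB and log2 -0.64, SE 0.0697, adjusted p = 3.11e-09 in p300 sgHBB. HOXB9 was also called lower in VPR sgHBB (log2 -0.51). HOXB8, a factor of blood progenitors and of spinal sensory circuits in mice, had 11.4 and 10.1 CPM in VPRP sgHBB, 10.0 and 12.1 in VPRP NonTarget, 22.0 and 23.0 in VPR sgHBB, 14.9 and 14.9 in p300 sgHBB, 33.9 and 31.5 in p300 D1399Y sgHBB, and 20.7 and 23.3 in WT. Here VPRP and p300 libraries lay below WT and the mutant libraries above it. The values were log2 -1.04, SE 0.130, adjusted p = 2.08e-08 in VPRP sgHBB. They were log2 0.57, SE 0.117, adjusted p = 0.00024 in p300 D1399Y sgHBB.

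HOXB2, which acts in the hindbrain, had 5.28 and 4.36 CPM in VPRP sgHBB, 5.71 and 4.71 in VPRP NonTarget, 9.37 and 11.2 in VPR sgHBB, 4.41 and 6.65 in p300 sgHBB, 14.4 and 16.5 in p300 D1399Y sgHBB, and 7.06 and 7.50 in WT. The mutant libraries were above all others (log2 1.08, SE 0.179, adjusted p = 1.41e-05). HOXB2 was lower in VPRP sgHBB (log2 -0.60, SE 0.204, adjusted p = 0.0116), which was lost without VPRP sgHBB replicate 2 (log2 -0.47, adjusted p = 0.113) or WT replicate 2 (log2 -0.56, adjusted p = 0.0665). HOXB3, whose span overlaps that of HOXB4, had 3.65 and 5.36 CPM in VPRP sgHBB, 4.25 and 4.10 in VPRP NonTarget, 8.74 and 7.05 in VPR sgHBB, 6.61 and 5.18 in p300 sgHBB, 11.8 and 14.2 in p300 D1399Y sgHBB, and 9.01 and 12.2 in WT. It fell in VPRP sgHBB (log2 -1.22, SE 0.205, adjusted p = 4.69e-06) and in p300 sgHBB (log2 -0.85, SE 0.198, adjusted p = 0.000623), while the WT and mutant libraries overlapped.

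The neighbours in the HOXB cluster diverged. HOXB4, which expands blood stem cells when overexpressed, had 5.74 and 5.36 CPM in VPRP sgHBB, 7.77 and 7.37 in VPRP NonTarget, 5.07 and 6.64 in VPR sgHBB, 2.51 and 4.59 in p300 sgHBB, 5.49 and 5.67 in p300 D1399Y sgHBB, and 5.98 and 6.21 in WT. It was called in p300 sgHBB alone (log2 -0.77, SE 0.233, adjusted p = 0.00655), and not without p300 sgHBB replicate 1 (log2 -0.41, adjusted p = 0.221). HOXB7 had 16.2 and 14.7 CPM in VPRP sgHBB, 14.1 and 12.0 in VPRP NonTarget, 18.7 and 20.3 in VPR sgHBB, 17.7 and 17.2 in p300 sgHBB, 26.9 and 27.3 in p300 D1399Y sgHBB, and 17.3 and 17.2 in WT. The mutant libraries stood above all others (log2 0.65, SE 0.119, adjusted p = 6.15e-05), while VPRP sgHBB missed the threshold (log2 -0.16, SE 0.125, adjusted p = 0.27). HOXB13, the posterior end of the cluster and a factor of the prostate, had 35.2 and 35.1 CPM in VPRP sgHBB, 42.3 and 37.5 in VPRP NonTarget, 33.1 and 29.1 in VPR sgHBB, 32.0 and 27.9 in p300 sgHBB, 31.3 and 30.4 in p300 D1399Y sgHBB, and 22.4 and 21.0 in WT. It was the only HOX gene whose libraries were higher than WT in all 5 groups with a call in each, from log2 0.46, SE 0.108, adjusted p = 0.000564 in p300 sgHBB to log2 0.88, SE 0.105, adjusted p = 8.4e-09 in VPRP NonTarget. All 5 calls of HOXB13 held under every alternative tried. HOXB5 and HOXB6, the 2 tested genes of the cluster not yet named, fell in VPRP sgHBB (log2 -1.04 and -0.83) and rose in p300 D1399Y sgHBB (log2 1.03 and 0.85).

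**Figure D3:**
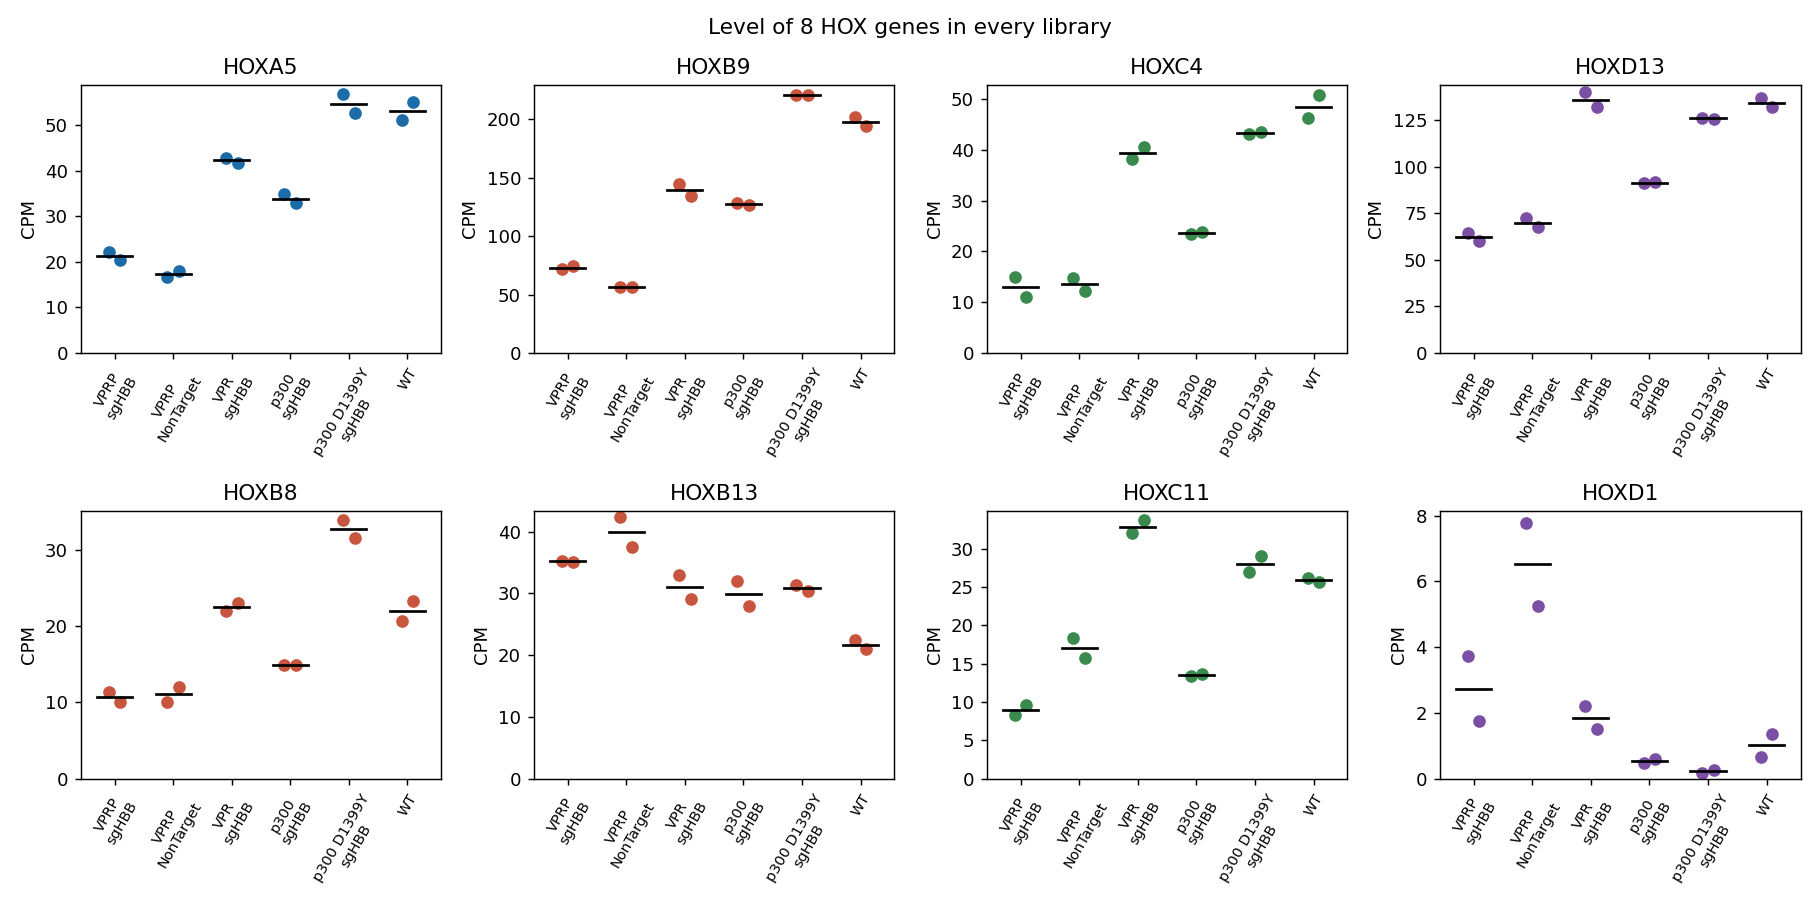
CPM (linear axes from 0) of 8 HOX genes in each of the 12 libraries (points), with the group mean as a line. HOXA5, HOXB9, HOXC4 and HOXD13 are lowest in both VPRP groups, HOXB8 is highest in p300 D1399Y sgHBB, HOXB13 is lowest in WT, HOXC11 is lowest in VPRP sgHBB, and HOXD1 is highest in VPRP NonTarget.

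In the HOXC cluster 7 of 8 tested genes fell in VPRP sgHBB, 6 in VPRP NonTarget and 7 in p300 sgHBB (28.0%, 28.5% and 21.6% of all genes). HOXC4, at the anterior end, had 15.0 and 10.9 CPM in VPRP sgHBB, 14.8 and 12.3 in VPRP NonTarget, 38.3 and 40.6 in VPR sgHBB, 23.5 and 23.9 in p300 sgHBB, 43.1 and 43.6 in p300 D1399Y sgHBB, and 46.2 and 50.8 in WT. The 2 VPRP groups overlapped each other and lay far below WT, with p300 sgHBB between. The change was log2 -1.91, SE 0.119, adjusted p = 1.16e-15 in VPRP sgHBB and log2 -1.03, SE 0.111, adjusted p = 1.98e-09 in p300 sgHBB. HOXC4, HOXC5 and HOXC6 have overlapping spans, so their reads may be shared. HOXC9, which sets the thoracic identity of motor neurons in mice, had 12.1 and 10.7 CPM in VPRP sgHBB, 16.2 and 13.9 in VPRP NonTarget, 28.9 and 29.7 in VPR sgHBB, 16.0 and 17.6 in p300 sgHBB, 27.5 and 25.2 in p300 D1399Y sgHBB, and 27.3 and 20.4 in WT. It fell in VPRP sgHBB (log2 -1.07, SE 0.136, adjusted p = 3.1e-08). Its call in p300 sgHBB (log2 -0.51) was lost without WT replicate 1, the higher WT library (log2 -0.28, adjusted p = 0.138).

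HOXC11, a position 11 gene, had 8.35 and 9.61 CPM in VPRP sgHBB, 18.3 and 15.7 in VPRP NonTarget, 32.0 and 33.7 in VPR sgHBB, 13.3 and 13.6 in p300 sgHBB, 26.9 and 29.0 in p300 D1399Y sgHBB, and 26.1 and 25.7 in WT. VPRP sgHBB lay below every other group, and its libraries did not overlap those of VPRP NonTarget. The change against WT was log2 -1.52, SE 0.127, adjusted p = 2.19e-12 in VPRP sgHBB and log2 -0.61, SE 0.117, adjusted p = 3.21e-05 in VPRP NonTarget. HOXC8, which acts in brachial motor neurons in mice, had 2.09 and 2.38 CPM in VPRP sgHBB, 4.62 and 3.71 in VPRP NonTarget, 5.89 and 5.06 in VPR sgHBB, 3.24 and 3.47 in p300 sgHBB, 7.22 and 7.05 in p300 D1399Y sgHBB, and 6.45 and 5.43 in WT. It fell in VPRP sgHBB (log2 -1.40, SE 0.240, adjusted p = 6.27e-06). In VPRP NonTarget its call (log2 -0.52, adjusted p = 0.0414) was lost without WT replicate 1 (log2 -0.39, adjusted p = 0.23) or VPRP NonTarget replicate 2 (log2 -0.38, adjusted p = 0.235) and with DESeq2, upper-quartile factors, library totals or the stricter filter.

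Among their neighbours, HOXC5 had 1.5 and 0.829 CPM in VPRP sgHBB, 2.19 and 2.71 in VPRP NonTarget, 3.61 and 3.28 in VPR sgHBB, 1.35 and 1.24 in p300 sgHBB, 2.77 and 3.67 in p300 D1399Y sgHBB, and 4.50 and 4.79 in WT. It fell in VPRP sgHBB (log2 -2.01, SE 0.325, adjusted p = 2.39e-06) and about as far in p300 sgHBB (log2 -1.84, SE 0.318, adjusted p = 1.28e-05). In VPRP NonTarget the change was smaller (log2 -0.92) and the call was lost without VPRP NonTarget replicate 1 (log2 -0.80, adjusted p = 0.059). HOXC6 had 9.20 and 9.56 CPM in VPRP sgHBB, 13.6 and 10.5 in VPRP NonTarget, 15.2 and 15.8 in VPR sgHBB, 9.42 and 7.95 in p300 sgHBB, 13.3 and 16.7 in p300 D1399Y sgHBB, and 15.1 and 13.8 in WT. Its VPRP sgHBB and p300 sgHBB libraries were below WT (log2 -0.62, SE 0.156, adjusted p = 0.000914 in VPRP sgHBB), and VPRP NonTarget was called only without VPRP NonTarget replicate 1 (log2 -0.49, adjusted p = 0.0253), not over all libraries (log2 -0.27, SE 0.151, adjusted p = 0.128). HOXC10, a lumbar gene, had 15.3 and 14.3 CPM in VPRP sgHBB, 17.5 and 14.6 in VPRP NonTarget, 27 and 26.8 in VPR sgHBB, 16.8 and 13.9 in p300 sgHBB, 26.9 and 30.1 in p300 D1399Y sgHBB, and 24.7 and 20.5 in WT. It fell in VPRP sgHBB (log2 -0.62, SE 0.130, adjusted p = 0.000123). Its call in VPRP NonTarget (log2 -0.50) was lost without WT replicate 1 (log2 -0.36, adjusted p = 0.0534). Its call as higher in p300 D1399Y sgHBB (log2 0.33) was lost without WT replicate 2 (log2 0.20, adjusted p = 0.357), p300 D1399Y sgHBB replicate 2 (log2 0.25, adjusted p = 0.246) or either VPRP NonTarget library (0.0536 and 0.0528), and with no filter or DESeq2. HOXC13, a gene of hair and nail growth at the posterior end, had 19.0 and 20.7 CPM in VPRP sgHBB, 25.7 and 24.9 in VPRP NonTarget, 27.1 and 20.0 in VPR sgHBB, 16.5 and 16.3 in p300 sgHBB, 21.8 and 23.7 in p300 D1399Y sgHBB, and 18.6 and 19.7 in WT. VPRP sgHBB did not differ from WT past the threshold (log2 0.05, SE 0.127, adjusted p = 0.734). VPRP NonTarget was higher (log2 0.40), a call lost without WT replicate 1 (log2 0.36, adjusted p = 0.052) or VPRP NonTarget replicate 1 (log2 0.35, adjusted p = 0.0571).

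In the HOXD cluster 5 of 7 tested genes fell in VPRP sgHBB, 5 in VPRP NonTarget and 5 in p300 sgHBB (28.0%, 28.5% and 21.6% of all genes). The same 5 symbols carry these calls. HOXD13, which shapes the digits, had 64.6 and 60.4 CPM in VPRP sgHBB, 72.3 and 67.8 in VPRP NonTarget, 140.0 and 132 in VPR sgHBB, 91.2 and 91.9 in p300 sgHBB, 126 and 126 in p300 D1399Y sgHBB, and 137 and 132 in WT. The VPRP libraries were lowest, p300 sgHBB lay in between, and VPR sgHBB overlapped WT. The change was log2 -1.11, SE 0.0748, adjusted p = 1.11e-14 in VPRP sgHBB and log2 -0.55, SE 0.0729, adjusted p = 1.23e-07 in p300 sgHBB. HOXD9, HOXD10 and HOXD11 act in the limb and the lumbosacral region. HOXD10 had 5.87 and 7.96 CPM in VPRP sgHBB, 6.07 and 7.81 in VPRP NonTarget, 17.6 and 15.9 in VPR sgHBB, 11.2 and 11.0 in p300 sgHBB, 23.9 and 20.7 in p300 D1399Y sgHBB, and 23.2 and 22.8 in WT. HOXD11 had 4.24 and 4.36 CPM in VPRP sgHBB, 5.77 and 3.71 in VPRP NonTarget, 11.6 and 11.8 in VPR sgHBB, 6.98 and 6.89 in p300 sgHBB, 13.5 and 14.2 in p300 D1399Y sgHBB, and 11.1 and 12.7 in WT. HOXD9 had 1.37 and 2.71 CPM in VPRP sgHBB, 1.94 and 2.55 in VPRP NonTarget, 5.89 and 5.13 in VPR sgHBB, 4.22 and 3.89 in p300 sgHBB, 8.38 and 9.96 in p300 D1399Y sgHBB, and 10.1 and 10.1 in WT. In all 3 genes every VPRP and p300 library was below every WT library. For VPRP sgHBB the change was log2 -1.72, SE 0.152, adjusted p = 8.73e-12 for HOXD10. It was log2 -1.46, SE 0.185, adjusted p = 2.57e-08 for HOXD11. HOXD9 changed most of the 3 (log2 -2.28, SE 0.240, adjusted p = 5.28e-10), and its value was -2.89 without VPRP sgHBB replicate 2. In VPR sgHBB 3 of the 7 tested HOXD genes were called lower than WT, beside 11.5% of all genes. They were HOXD9 (log2 -0.87), HOXD10 (log2 -0.46) and HOXD3, which is described below. Every VPR sgHBB library of HOXD9 and HOXD10 was below every WT library. The HOXD10 call was lost without VPR sgHBB replicate 2, WT replicate 1 or WT replicate 2. HOXD8, the neighbour on the anterior side, had 8.28 and 9.17 CPM in VPRP sgHBB, 12.5 and 11.7 in VPRP NonTarget, 9.82 and 9.85 in VPR sgHBB, 7.40 and 7.83 in p300 sgHBB, 10.3 and 9.27 in p300 D1399Y sgHBB, and 9.41 and 9.38 in WT. It was not called in VPRP sgHBB (log2 -0.10, SE 0.157, adjusted p = 0.592). Its call as higher in VPRP NonTarget (log2 0.36, adjusted p = 0.0378) was lost without any one of the WT or VPRP NonTarget libraries, with adjusted p-values of 0.0993, 0.106, 0.191 and 0.0847, with DESeq2 (0.0754) and with no filter (0.153).

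HOXD3 and HOXD1 fall outside the rule for full values and are described because of their course, after their values were seen. HOXD3 had 1.89 and 1.93 CPM in VPRP sgHBB, 3.04 and 2.16 in VPRP NonTarget, 4.69 and 3.97 in VPR sgHBB, 2.02 and 2.41 in p300 sgHBB, 4.33 and 4.70 in p300 D1399Y sgHBB, and 6.52 and 7.50 in WT. WT was above every other library, and HOXD3 was the only HOX gene called lower in all 5 groups, with log2 values of -1.87 in VPRP sgHBB, -1.44 in VPRP NonTarget, -0.69 in VPR sgHBB, -1.66 in p300 sgHBB and -0.64 in p300 D1399Y sgHBB. The VPR call was lost without VPR sgHBB replicate 2, WT replicate 1 or WT replicate 2 (adjusted p = 0.18, 0.0533 and 0.175). The mutant's call was lost without any one of its own or the WT libraries (adjusted p = 0.174, 0.0899, 0.0611 and 0.2) and with DESeq2 (0.0715). HOXD3 and HOXD4 have overlapping spans.

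HOXD1 went the other way. It had 3.72 and 1.77 CPM in VPRP sgHBB, 7.77 and 5.26 in VPRP NonTarget, 2.22 and 1.51 in VPR sgHBB, 0.490 and 0.589 in p300 sgHBB, 0.173 and 0.277 in p300 D1399Y sgHBB, and 0.672 and 1.36 in WT. Both VPRP groups lay above WT and the mutant below every other library, on 3 to 128 reads a library. The change was log2 2.66, SE 0.381, adjusted p = 2.82e-07 in VPRP NonTarget, and 3.26 without WT replicate 2. In VPRP sgHBB it was log2 1.40, SE 0.415, adjusted p = 0.00423, but 0.79 (adjusted p = 0.185) without VPRP sgHBB replicate 1, 0.99 (adjusted p = 0.0889) with WT replicate 1 left out and 2.0 with WT replicate 2 left out. In p300 D1399Y sgHBB it was log2 -2.17, SE 0.652, adjusted p = 0.0103, and the call was lost without p300 D1399Y sgHBB replicate 1 (log2 -1.86, adjusted p = 0.0957) or WT replicate 2 (log2 -1.57, adjusted p = 0.189).

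By position, all tested genes of positions 2, 3, 5, 9, 10 and 11 fell in both VPRP groups against WT: 2, 3, 3, 4, 3 and 3 genes. Not all of these calls were stable. In VPRP NonTarget that of HOXB2 was lost without either WT library or VPRP NonTarget replicate 2. It was also lost with upper-quartile factors, library totals or DESeq2. The HOXA11 call there was lost without WT replicate 2 or VPRP NonTarget replicate 1 and with library totals. At position 6 all 3 tested genes fell in VPRP sgHBB and 2 of 3 in VPRP NonTarget. At positions 4, 7, 8 and 13 the calls in VPRP sgHBB differed between paralogs, which were not tested against each other. In VPRP NonTarget both tested position 7 genes were called lower. The HOXB7 call there was lost with library totals and without VPRP NonTarget replicate 2. At position 4 HOXC4 fell in VPRP sgHBB (log2 -1.91), while HOXA4 (log2 -0.68) and HOXB4 (log2 -0.14) were not called. At position 7 HOXA7 fell (log2 -1.13) and HOXB7 was not called (log2 -0.16). At position 8 HOXB8 and HOXC8 fell (log2 -1.04 and -1.40), and HOXD8 was not called (log2 -0.10). At position 13 HOXA13 and HOXD13 fell (log2 -0.43 and -1.11), HOXC13 was not called (log2 0.05) and HOXB13 rose (log2 0.70). The share of genes called lower in VPRP sgHBB was 6 of 10 at positions 1 to 4, 13 of 15 at positions 5 to 9 and 8 of 10 at positions 10 to 13, beside 28.0% of all genes. These 3 shares were not tested against each other.

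In direct comparisons most HOX genes were lower in VPRP sgHBB than in VPR sgHBB, and lower in p300 sgHBB than in p300 D1399Y sgHBB. VPRP sgHBB and VPR sgHBB also differed in EP300 reads (375 against 98.7 CPM) and in MAGEA10 (0.213 against 25.9 CPM). The part of these differences in the HOX values was not tested. In VPRP sgHBB against VPR sgHBB, whose labels differ by the p300 part, 27 of 35 HOX genes were lower and 0 were higher, where 25.1% of all genes were called lower and 24.7% higher. No HOX gene was higher at an unadjusted p under 0.05 with edgeR or with DESeq2's adjusted p; with library totals 1 was. The median log2 fold change was -1.0, against 0.00 over all genes, and 16 were at least 2-fold lower (3.17% of all genes). The largest change was in HOXC11 (log2 -1.86, SE 0.125, adjusted p = 1.83e-14), at 8.35 and 9.61 CPM in VPRP sgHBB, against 32.0 and 33.7 CPM in VPR sgHBB. HOXC4 followed (log2 -1.61, SE 0.121, adjusted p = 2.99e-13), and HOXD9 was at -1.41, or -2.01 without VPRP sgHBB replicate 2. The genes not called included HOXA2, HOXA4, HOXB4, HOXB13, HOXC13, HOXD1 and HOXD8, of which HOXA2 passed without VPRP sgHBB replicate 2 (adjusted p = 0.0474) and HOXC13 without VPR sgHBB replicate 2 (0.00537). The calls of HOXB3, HOXB5 and HOXB7 each rested on single libraries: HOXB3 missed without VPRP sgHBB replicate 1 (adjusted p = 0.062), HOXB5 without VPR sgHBB replicate 1 (0.0612), and HOXB7 without VPRP sgHBB replicate 2 (0.156) or VPR sgHBB replicate 2 (0.123) and with DESeq2, library totals or only the 2 groups in the fit.

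The labels of p300 sgHBB and p300 D1399Y sgHBB differ by the D1399Y substitution, and their EP300 reads differed as well, at 1116 and 1132 CPM in p300 sgHBB, against 195 and 194 CPM in p300 D1399Y sgHBB. The part of this difference in the HOX values was not tested. Between them 30 of 35 were lower and 0 higher, beside 15.0% and 15.4% of all genes. No HOX gene was higher at an unadjusted p under 0.05 with edgeR or with DESeq2's adjusted p. The median was -0.84, against 0.01 over all genes, and 12 were at least 2-fold lower, as were 1.07% of all genes. All 8 tested HOXC genes and 8 of 9 HOXB genes were lower. HOXB5 had the largest change (log2 -1.73, SE 0.235, adjusted p = 7.58e-07), at 2.63 and 3.06 CPM in p300 sgHBB, against 9.48 and 9.41 CPM in p300 D1399Y sgHBB. HOXB2 (log2 -1.48, SE 0.183, adjusted p = 1.46e-07) and HOXB6 (log2 -1.23, SE 0.156, adjusted p = 2.14e-07) were next among the HOXB genes that had risen against WT in the mutant. HOXA9, HOXA10, HOXA11, HOXB2, HOXB6 and HOXB7 were called higher than WT in the mutant and were not called in p300 sgHBB against WT. HOXB5, HOXB8 and HOXC10 were called higher in the mutant and lower in p300 sgHBB. HOXA4, HOXA13, HOXB13, HOXD1 and HOXD8 were not called, and HOXD1 was the only one above 0 (log2 1.26, adjusted p = 0.194). Calls of HOXA2, HOXA6, HOXA7, HOXB4, HOXC13 and HOXD3 were lost when 1 library of either group was left out. Those of HOXA2, HOXA7 and HOXB4 were also lost with DESeq2. The HOXA2 call was lost as well with upper-quartile factors, library totals, no filter or the replicate block, and without either VPRP NonTarget library.

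**Figure D4:**
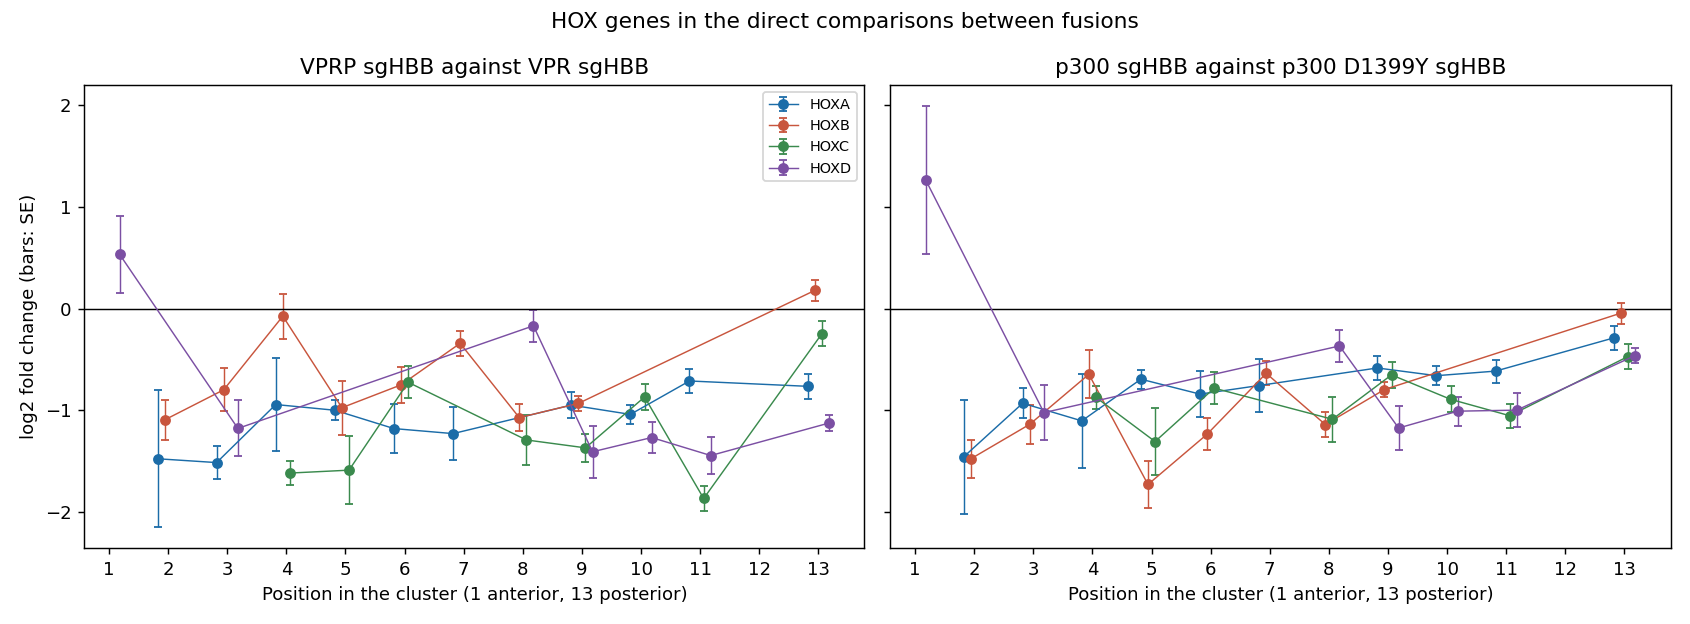
Log2 fold change with its SE (bars) of the tested HOX genes shown, by position in its cluster (1 anterior, 13 posterior), for VPRP sgHBB over VPR sgHBB (left) and p300 sgHBB over p300 D1399Y sgHBB (right), with clusters in 4 colours. Nearly all points lie under 0 in both panels; HOXD1 is above 0 in both with wide bars, and HOXB13 lies near 0.

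VPRP sgHBB was also below p300 sgHBB for 15 of 35 HOX genes and above it for 2, beside 13.7% and 14.3% of all genes, with a median of -0.43. HOXB9 was among the lower ones (log2 -0.80, SE 0.0724, adjusted p = 1.39e-10), as was HOXA5 (log2 -0.68, SE 0.0992, adjusted p = 2.43e-06). The 2 higher genes were HOXD1 (log2 2.31, or 1.70 without VPRP sgHBB replicate 1) and HOXB4 (log2 0.64, adjusted p = 0.0383). The HOXB4 call was lost without VPRP sgHBB replicate 1 or 2 or p300 sgHBB replicate 1 (adjusted p = 0.143, 0.0874 and 0.505) and with DESeq2 (0.0667). HOXD9 (log2 -0.96) was at -1.56 without VPRP sgHBB replicate 2 and missed the threshold without VPRP sgHBB replicate 1 (log2 -0.58, adjusted p = 0.157).

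Between the VPRP groups, whose labels differ by the guide, the HOX genes differed less. Their EP300 reads (375 CPM in VPRP sgHBB, 1172 in VPRP NonTarget) and MAGEA10 (0.213 and 32.0 CPM) differed as well. The part of these differences in the HOX values was not tested. In VPRP sgHBB against VPRP NonTarget 9 of 35 were lower and 2 higher, beside 14.4% and 14.9% of all genes, with a median of -0.15 against -0.01 over all genes. The lower ones included 5 of 8 HOXC genes. HOXC11 was among them (log2 -0.91, SE 0.131, adjusted p = 1.69e-06), and its call held under every alternative tried. The calls of HOXC5, HOXC8, HOXC9 and HOXC13 were each lost when single libraries were left out. Those of HOXC9 and HOXC13 were also lost with DESeq2 or no filter. HOXD1 (log2 -1.26, SE 0.327, adjusted p = 0.00338), which was highest in VPRP NonTarget, was lower too. The HOXD1 value was -1.87 without VPRP sgHBB replicate 1, and its call was lost without VPRP sgHBB replicate 2 (log2 -0.81, adjusted p = 0.122) or VPRP NonTarget replicate 1 (log2 -0.94, adjusted p = 0.125). The 2 higher genes were HOXB9 (log2 0.38, SE 0.0753, adjusted p = 0.000229) and HOXA5 (log2 0.29, adjusted p = 0.037). The HOXA5 call was lost without VPRP sgHBB replicate 1 (adjusted p = 0.215) or either VPRP NonTarget library (0.188 and 0.066) and with DESeq2, no filter or library totals. The count rests on single libraries: 7 were called when VPRP sgHBB replicate 1 or replicate 2 was left out and 4 without VPRP NonTarget replicate 1. With library totals the split was 1 higher and 11 lower, and over all genes 1935 higher and 3031 lower in place of 2491 and 2407.

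Over the 35 tested genes, p300 D1399Y sgHBB had the highest group mean for 15, WT for 8, VPR sgHBB for 6 and VPRP NonTarget for 6. VPRP sgHBB had the lowest mean for 18, VPRP NonTarget for 9, p300 sgHBB for 6, and WT and p300 D1399Y sgHBB for 1 each. These ranks include neighbours that the tests did not tell apart. Of the genes that missed the count filter, HOXB1 had 1 read in all 12 libraries, in p300 sgHBB. HOXC12 had 1 to 12 reads a library, HOXD4 had 0 to 9 and HOXD12 had 1 to 11, and for these 3 genes the p300 sgHBB libraries had at most 1 read each. No test was made for these 4.

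The genes of 6 lists were counted beside the HOX genes, against shares over all genes of 28.0% lower and 31.1% higher in VPRP sgHBB against WT (median log2 fold change 0.04) and of 15.0% lower and 15.4% higher in p300 sgHBB against p300 D1399Y sgHBB (median 0.01). The first list is of a homeodomain class that includes the PBX and MEIS cofactors of HOX proteins, and not every member is such a cofactor. Of 11 TALE homeodomain genes (the PBX, MEIS, PKNOX and TGIF families), 8 fell and 2 rose in VPRP sgHBB against WT (beside 28.0% and 31.1% of all genes), with a median log2 fold change of -0.62. MEIS2 fell (log2 -1.21, SE 0.124, adjusted p = 3.34e-10), with 10.6 and 10.3 CPM in VPRP sgHBB, against 23.9 and 24.3 CPM in WT. TGIF2 (log2 -0.99, SE 0.0829, adjusted p = 2.36e-12) fell as well, and MEIS3 rose (log2 1.07, SE 0.123, adjusted p = 3.84e-09). In p300 sgHBB against p300 D1399Y sgHBB 6 were lower and 1 higher (beside 15.0% and 15.4% of all genes). PBX4 was the higher one (log2 2.18, SE 0.250, adjusted p = 3.13e-08), with 9.12 and 7.83 CPM in p300 sgHBB, against 1.39 and 2.42 CPM in p300 D1399Y sgHBB.

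Of 15 tested Polycomb genes, which repress HOX clusters, 8 fell and 4 rose in VPRP sgHBB against WT, with a median of -0.19; 28.0% of all genes fell and 31.1% rose. PHC1 (log2 -0.91, SE 0.102, adjusted p = 2.13e-09), CBX2 (log2 -0.81, SE 0.0750, adjusted p = 3.17e-11) and EZH1 (log2 -0.65, SE 0.128, adjusted p = 5.2e-05) fell, and EED rose (log2 0.61, SE 0.0998, adjusted p = 2.87e-06). Of 11 tested Trithorax and related genes, which keep HOX clusters active, 6 fell and 2 rose (28.0% and 31.1% of all genes), with a median of -0.21. KMT2A fell (log2 -0.83, SE 0.0871, adjusted p = 4.45e-10), as did WDR5 (log2 -0.57, SE 0.0762, adjusted p = 9.18e-08) and MEN1 (log2 -0.51, SE 0.0750, adjusted p = 5.38e-07), while RBBP5 rose (log2 0.54, SE 0.0783, adjusted p = 4.06e-07). Without VPRP sgHBB replicate 1 the Trithorax count was 4 lower and 1 higher of 11, with the lower ones near the share over all genes. Among 14 tested genes of retinoic acid and CDX input, 8 fell and 4 rose (28.0% and 31.1% of all genes), with a median of -0.49. STRA6, a retinol carrier receptor (log2 3.39, SE 0.666, adjusted p = 4.88e-05), and ALDH1A1 and ALDH1A3, which make retinoic acid (log2 3.25 and 1.03), were the higher ones with the largest changes. ALDH1A2, which makes retinoic acid as well and is named here after its value was seen, fell (log2 -1.01, SE 0.0845, adjusted p = 2.55e-12). CYP26A1, which breaks retinoic acid down, fell (log2 -1.21, SE 0.243, adjusted p = 6.69e-05). For p300 sgHBB against p300 D1399Y sgHBB the counts were 7 lower and 1 higher for Polycomb, 3 and 1 for Trithorax and 3 and 2 for retinoic acid and CDX genes, where 15.0% of all genes were lower and 15.4% higher. The retinoic acid and CDX counts and the count of Trithorax genes higher are near or below those shares. The Polycomb total was 5 without any one of the 4 libraries, the Trithorax total 1 without p300 D1399Y sgHBB replicate 1, and the retinoic acid and CDX total 3 without p300 D1399Y sgHBB replicate 2.

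The antisense and intergenic RNAs of the clusters that were called in VPRP sgHBB against WT, and in p300 sgHBB against p300 D1399Y sgHBB, were all lower in VPRP sgHBB and in p300 sgHBB. Of 13 tested, 7 fell and 0 rose in VPRP sgHBB against WT (28.0% and 31.1% of all genes), with a median of -0.68. In p300 sgHBB against p300 D1399Y sgHBB 10 were lower and 0 higher (15.0% and 15.4% of all genes), with a median of -0.95. None was higher at an unadjusted p under 0.05 in edgeR or at an adjusted p in DESeq2. HOTAIR, transcribed from the HOXC cluster, had 3.98 and 3.54 CPM in VPRP sgHBB, 2.13 and 1.44 in VPRP NonTarget, 9.63 and 10.2 in VPR sgHBB, 4.77 and 4.06 in p300 sgHBB, 10.0 and 6.92 in p300 D1399Y sgHBB, and 8.0 and 8.60 in WT. It was lower in both VPRP groups and in p300 sgHBB than in WT, without overlap, and its value in VPRP sgHBB was log2 -1.15, SE 0.215, adjusted p = 2.45e-05. HOXD-AS2 changed most in VPRP sgHBB (log2 -1.73, SE 0.383, adjusted p = 0.000228). HOXC-AS2 (log2 -1.43, SE 0.325, adjusted p = 0.000908) and HOXA-AS2 (log2 -1.37, SE 0.317, adjusted p = 0.00113) changed most between p300 sgHBB and p300 D1399Y sgHBB. Reads of antisense and sense partners cannot be told apart here, since the strand setting of the counting is not given in the sources used here. The count of 7 was 4 of 13 without WT replicate 2, near the share over all genes, and the count of 10 was 5 without p300 D1399Y sgHBB replicate 1 and 6 without p300 sgHBB replicate 2 or p300 D1399Y sgHBB replicate 2.

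Of 13 tested genes that flank the clusters, 4 rose and 3 fell in VPRP sgHBB against WT, with a median of 0.18. These counts are near the shares over all genes, 31.1% higher and 28.0% lower. LNPK, next to the HOXD cluster, rose (log2 0.60, SE 0.0851, adjusted p = 2.26e-07), and SKAP2, next to the HOXA cluster, fell (log2 -0.54, SE 0.0925, adjusted p = 5.9e-06). EVX2, a homeobox gene beside HOXD13, had 0.326 and 0.331 CPM in VPRP sgHBB, against 0 and 0.0647 CPM in WT, where WT rests on 1 read. It is 1 of the 4 called higher (adjusted p = 0.0432), a call lost with DESeq2 (0.0944) or no filter (0.0773) and without either VPRP sgHBB library (0.0858 and 0.0988), either WT library (0.204 and 0.055) or either VPRP NonTarget library (0.0554 and 0.055).

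Markers of cell types were counted beside these values, for VPRP sgHBB against WT beside 31.1% of all genes called higher and 28.0% lower. All 6 HEK293 background markers with a gene ID had reads in every library, and their summed level was 267 to 271 CPM in VPRP sgHBB, 266 to 279 in VPRP NonTarget, 296 to 325 in VPR sgHBB, 234 to 238 in p300 sgHBB, 389 to 392 in p300 D1399Y sgHBB, and 362 to 380.4 in WT. In VPRP sgHBB against WT 2 of the 6 rose (NES and KRT8) and 2 fell (VIM and NEFM), and in p300 sgHBB against p300 D1399Y sgHBB 4 were lower (15.0% of all genes). Of the mesenchymal markers 6 of 8 were tested, 4 rose and 2 fell, and their sum was 82.9 to 83.8 CPM in VPRP sgHBB, 54.5 to 59.6 in VPRP NonTarget, 52.3 to 53.3 in VPR sgHBB, 50.7 to 52.9 in p300 sgHBB, 56.9 to 66.9 in p300 D1399Y sgHBB, and 37.3 to 38.4 in WT. Of 5 epithelial markers 2 were called, both higher, with a sum of 25.1 to 25.4 CPM in VPRP sgHBB, 17.9 to 21.3 in VPRP NonTarget, 20.0 to 22.4 in VPR sgHBB, 19.3 to 19.8 in p300 sgHBB, 26.7 to 29.6 in p300 D1399Y sgHBB, and 13.2 to 14.9 in WT. The erythroid gene GYPB was at 0 in 11 of 12 libraries, and neither of the 2 tested erythroid markers nor any of the 3 tested blood and endothelial markers was called in VPRP sgHBB against WT. At an unadjusted p under 0.05 edgeR had 0 and 1 of them, and DESeq2 called 0 of either. The blood and endothelial sum was 1.83 to 3.67 CPM in all libraries. The erythroid sum was 189 to 190.4 CPM in VPRP sgHBB, 208 to 213 in VPRP NonTarget, 191 to 199 in VPR sgHBB, 222 to 233 in p300 sgHBB, 204 to 216 in p300 D1399Y sgHBB, and 167 to 180.5 in WT. Its member TFRC was called higher than WT in VPRP NonTarget, p300 sgHBB and p300 D1399Y sgHBB (log2 0.27, 0.39 and 0.27). EPB42, the other tested member, was not called against WT in any group. The part of these marker differences in the HOX values was not tested.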

How the data were processed

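The authors deposited a table of raw read counts (whole reads per gene) for 12 poly-A RNA libraries. Per the submitters' processing notes, which list tools without their roles, hg19 was the genome build, and the list names HTSeq 0.6.1, STAR 2.5, BWA, DESeq2 1.24.0 and deepTools. No source used here gives the annotation release or the strand setting. The 10 ChIP samples were not analysed here. Of 48162 IDs 33626 were given a symbol. Counts were normalised by TMM, filtered by expression in edgeR 4.0.16 (minimum count 10, minimum total 15; 16694 genes kept) and fitted with the quasi-likelihood model (R 4.3.3, limma 3.58.1) over all 12 libraries with 1 mean per group, called at a Benjamini-Hochberg adjusted p under 0.05. The SE is the size of the log2 fold change divided by the square root of F. CPM use TMM-scaled totals. As alternatives, the fit was repeated with RLE factors, upper-quartile factors, DESeq2 1.42.0, library totals (added after the data were seen), no filter, a stricter filter of 1 CPM in 2 libraries, only the groups compared, the replicate number as a block, and leaving out each library. Values in every library are given for the HOX genes called with an at least 2-fold change against WT in some group, up to 4 a cluster by highest mean log2 CPM, and for their nearest tested neighbours. From each other list up to 4 called genes with the largest change are named. Members and gene lists were chosen with earlier results of these data known. Some single genes of the clusters and lists are not reported here, though counts over a cluster or list include them.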

Additional observations from a re-analysis of the deposited data

How the results depend on the processing

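Over 315 pairs of a HOX gene and a comparison, 192 were called; 138 of these held under every alternative tried, 54 were lost under at least 1, and 0 changed sign. The HOX count in VPR sgHBB against WT was 12, 7 with DESeq2 and 3 to 12 when 1 library was left out. In VPRP sgHBB against VPRP NonTarget it was 11, 7 with no filter and 4 to 11 when 1 library was left out. Leaving out 1 library gave 27 to 29 calls in VPRP sgHBB, 25 to 31 in VPRP NonTarget, 20 to 24 in p300 sgHBB and 9 to 13 in p300 D1399Y sgHBB, each against WT, and 26 to 27, 13 to 18 and 25 to 30 in VPRP sgHBB against VPR sgHBB, VPRP sgHBB against p300 sgHBB and p300 sgHBB against p300 D1399Y sgHBB. Library totals moved the median of all genes by up to 0.17 on the log2 scale. Over all genes they gave 6360 higher and 3549 lower in place of 5207 and 4765 in VPRP NonTarget against WT, and 4841 and 3099 in place of 4118 and 4189 in VPRP sgHBB against VPR sgHBB; HOX counts there were 1 higher and 26 lower. The cause was not tested. Replicate numbers did not pair the libraries: over 15 pairs of groups the correlation of same-numbered libraries ran from -0.15 to 0.13. With the replicate block the HOX counts were 29, 31, 10, 23 and 12 against WT (VPRP sgHBB, VPRP NonTarget, VPR sgHBB, p300 sgHBB, p300 D1399Y sgHBB), and 27, 17, 29 and 11 for VPRP sgHBB against VPR sgHBB, VPRP sgHBB against p300 sgHBB, p300 sgHBB against p300 D1399Y sgHBB and VPRP sgHBB against VPRP NonTarget. Depth limits HOXA2, HOXA4, HOXD1 and the 4 untested genes most. Leaving out 1 library of a group assumes that the other varies like the remaining groups. The fit shares its estimate of the spread over all groups, while their replicates varied unequally. Before scaling factors, the variance between replicates was 13.6 times that of counting noise alone in VPR sgHBB. It was 7.33 times in VPRP sgHBB and 2.86 to 4.91 times in the other groups. The effect of this on the p-values was not tested.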
